A study of Mus musculus with 5 samples.

Results

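The genes described were 8 forkhead genes, Foxf1, Foxc2, Foxl1, Foxq1, Foxf2, Foxc1, Foxd1 and Foxd2, out of 21938 protein-coding genes. Each was taken as its gene body in the GENCODE M21 annotation of the mouse genome build GRCm38 with 5 kb on each side, here called its window, and every peak touching a window by at least 1 base was counted. The mark was mapped by sequencing of immunoprecipitated chromatin (ChIP-seq) in molars of wildtype C57BL/6 mice at post natal day 3, from which the epithelium had been taken off so that mesenchyme remained. The 5 libraries were 2 with an antibody against H3K27me3 (replicates 1 and 2), 2 of input chromatin, and 1 with a nonspecific IgG antibody. All shared strain, genotype, age and tissue, and there was no mutant or treated group. The labels do not say how many animals gave a library or whether replicates 1 and 2 are biological, so an SD below is the spread between 2 libraries, which may be technical.

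Forkhead (Fox) proteins are transcription factors that bind DNA through a winged-helix domain. In vertebrates the Foxq1, Foxf and Foxc genes, and the Foxf, Foxc and Foxl1 genes, lie next to each other in clusters, and several members act in mesenchyme derived from mesoderm and neural crest. H3K27me3, trimethylation of lysine 27 of histone H3, is placed by the Polycomb complex PRC2 through Ezh2, accompanies transcriptional repression, and is often found over CpG-rich genes of developmental transcription factors.

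Peaks were called in 3 lists, namely replicate 1 against input, the same replicate 1 library against IgG, and replicate 2 against its own input. The IgG list therefore shows the effect of another control and is not a further replicate. Replicate 1 held 30369351 H3K27me3 tags and replicate 2 held 49947919, the tag length was 49 and 74 bp, and the lists held 22757, 24881 and 33370 peaks on the nuclear chromosomes in the order given above. Depth, tag length and replicate cannot be told apart in this design. Of 10 dental mesenchyme markers, 6 had a peak in the window in both replicates, and Col1a1 had none in any list. Of 8 dental epithelium markers, 2 did, and Krt5, Krt14 and Amelx had none in any list. Among all protein-coding genes, 15.7% had a peak in the window in both replicates. Windows over 20 kb, which have more room for a peak, were held by 6 of the 10 mesenchyme and 6 of the 8 epithelium markers. A peak list measures the mark and not expression, so these markers do not test the tissue label.

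In order to show what the peaks at these genes were made of, the bases on which the descriptions below turn are printed 5′ to 3′ on the plus strand, read from GRCm38.p6, with each CG dinucleotide in capitals. The first is the only stretch in the 8 windows that lay in peaks of both replicates, at chr13:98359457-98359593, just past the end of Foxd1. The next is the peak upstream of Foxc1 that was called with equal ends against input and against IgG, at chr13:31805692-31805870. It is followed by the part of the Foxc1 promoter ahead of the gene start (RefSeq promoter table, GRCm38.p6), at chr13:31806396-31806632, which lay within a replicate 2 peak. Next is the replicate 1 peak upstream of Foxd1 at chr13:98352653-98352713, which had the highest fold enrichment of all member peaks. Last are the nearest upstream peaks of Foxf2, in replicate 1 at chr13:31623894-31624006 and in replicate 2 at chr13:31624838-31625137 (first 300 bases), and the longest replicate 1 peak downstream of Foxc2, at chr8:121122284-121122525.
Foxd1 shared bases: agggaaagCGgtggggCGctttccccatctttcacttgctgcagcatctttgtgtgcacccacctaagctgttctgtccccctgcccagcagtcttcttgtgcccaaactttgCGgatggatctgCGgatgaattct
Foxc1 upstream peak: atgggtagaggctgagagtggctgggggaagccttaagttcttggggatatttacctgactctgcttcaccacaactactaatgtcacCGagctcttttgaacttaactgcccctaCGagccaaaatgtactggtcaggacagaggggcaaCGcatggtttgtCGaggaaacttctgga
Foxc1 promoter: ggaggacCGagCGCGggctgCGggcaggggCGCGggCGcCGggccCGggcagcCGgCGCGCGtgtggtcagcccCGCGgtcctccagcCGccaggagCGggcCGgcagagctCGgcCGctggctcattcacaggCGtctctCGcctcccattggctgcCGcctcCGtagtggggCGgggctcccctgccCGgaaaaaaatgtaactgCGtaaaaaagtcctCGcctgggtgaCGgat
Foxd1 upstream peak: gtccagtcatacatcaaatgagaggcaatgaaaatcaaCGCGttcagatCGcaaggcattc
Foxf2 upstream peak, replicate 1: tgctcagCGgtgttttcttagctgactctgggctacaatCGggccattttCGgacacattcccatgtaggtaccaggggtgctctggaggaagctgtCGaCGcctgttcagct
Foxf2 upstream peak, replicate 2: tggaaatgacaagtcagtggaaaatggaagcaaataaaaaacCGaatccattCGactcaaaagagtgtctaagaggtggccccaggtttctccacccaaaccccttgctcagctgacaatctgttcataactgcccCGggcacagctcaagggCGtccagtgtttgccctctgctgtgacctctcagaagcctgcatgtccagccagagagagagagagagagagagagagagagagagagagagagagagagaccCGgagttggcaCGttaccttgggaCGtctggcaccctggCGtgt
Foxc2 downstream peak: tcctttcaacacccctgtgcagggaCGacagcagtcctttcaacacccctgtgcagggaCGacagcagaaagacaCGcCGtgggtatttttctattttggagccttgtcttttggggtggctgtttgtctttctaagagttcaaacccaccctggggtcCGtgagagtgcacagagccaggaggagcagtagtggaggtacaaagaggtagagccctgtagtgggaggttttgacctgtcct

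The 7 sequences differed in CG content. The Foxc1 promoter held 29 CG dinucleotides in 237 bases with a GC content of 72.6%, whereas the Foxc1 upstream peak of replicate 1 held 4 in 179 bases with a GC content of 49.7%. The bases shared by both replicates at Foxd1 held 4 in 137 bases. The replicate 2 peak upstream of Foxf2 held 8 in the 300 bases shown and contained a long run of alternating g and a.

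Most of the 8 genes carried peaks, and 6 of them, Foxc2, Foxl1, Foxf2, Foxc1, Foxd1 and Foxd2, did so in both replicates and in all 3 lists. A peak was present in the window of 7 of the 8 genes in replicate 1 against input, against 25.0% of all protein-coding genes. The corresponding numbers were 7 of 8 and 25.9% against IgG, and 7 of 8 and 35.7% in replicate 2. In both replicates it was 6 of 8 (75.0%) against 15.7% of all genes. Windows of the 8 genes were short, all under 20 kb, and a longer window has more room for a peak. Among the 7774 protein-coding genes with a window of at most 20 kb, 13.6%, 14.3% and 16.8% had a peak in the lists in the same order, and 6.24% had one in both replicates. The absences were Foxf1 in replicate 1 against input, Foxq1 against IgG and Foxq1 in replicate 2.

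The share of a window lying in peaks put Foxd1 first and Foxq1 last. Foxd1, a factor of stromal and other mesenchymal progenitors, had 6.84% of its window covered in replicate 1, 7.72% against IgG and 9.62% in replicate 2 (mean of the replicates against input 8.23% ± 1.97, SD, n = 2). Foxc1, needed for eye, skeletal and heart development, had 4.09%, 3.92% and 6.73% (5.41% ± 1.87). Foxc2, its paralogue, known for its part in lymphatic vessels, had 4.36%, 7.64% and 2.45% (3.41% ± 1.35). Thus Foxd1 and Foxc1 were higher in replicate 2 and Foxc2 was higher in replicate 1, most of all against IgG.

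Foxf2, which acts in palate and gut mesenchyme, had 3.66%, 2.09% and 2.55% (3.11% ± 0.780). Foxl1, a gene of the mesenchyme under the gut epithelium, had 3.57%, 3.51% and 2.15% (2.86% ± 1.0). Foxd2, a paralogue of Foxd1, had 1.91%, 2.01% and 1.72% (1.82% ± 0.129), the smallest SD of the 8. These 3 genes were covered in every list. Foxl1 and Foxd2 lay below Foxc2 in each list, whereas Foxf2 lay below Foxc2 in both lists of replicate 1 and above it in replicate 2.

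Foxf1, a regulator of lung and gut mesenchyme, had 0%, 0.334% and 1.84% (0.919% ± 1.30). Foxq1, known in hair shaft and stomach epithelium, had 0.876%, 0% and 0% (0.438% ± 0.619). Each of them was covered in only 1 of the 2 replicates, so that the SD was larger than the mean. Over all protein-coding genes the mean covered share was 0.222%, 0.259% and 0.316% and the median was 0. By the mean over replicates, Foxd1 and Foxc1 lay above 99.5% and 99.2% of protein-coding genes, Foxc2, Foxl1, Foxf2 and Foxd2 above 97.7% to 98.8%, Foxf1 above 94.6% and Foxq1 above 86.6%. These ranks are over all 21938 genes, of which 7774 had a window of at most 20 kb, as all 8 did. Ranks among the short windows alone were not taken. Within the order of the 8 genes the gaps between the means of Foxc2, Foxf2 and Foxl1 were smaller than the SD of each, and so was the gap between Foxf1 and Foxq1. Foxd1 lay above Foxc1 in all 3 lists, Foxc2 lay above Foxl1 in all 3, and Foxl1 lay above Foxd2 in all 3.

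**Figure D1:**
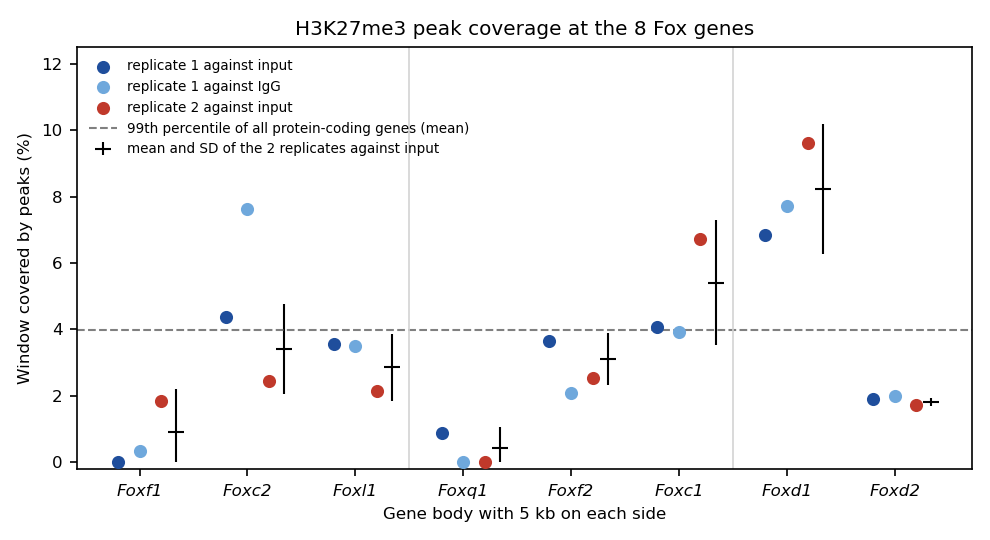
Percentage of each window covered by peaks (y axis) for the 8 genes (x axis), 1 point per peak list, with the mean and SD of the 2 replicates against input in black. The dashed line is the 99th percentile of all protein-coding genes of any window length (3.99%). Foxd1 lay above the line in all 3 lists, Foxf1, Foxl1, Foxq1, Foxf2 and Foxd2 lay below it in all 3, and the replicates of Foxc2 and Foxc1 differed in opposite directions.

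The peaks themselves were short and weak. Over the 8 windows there were 24 peaks in replicate 1, 25 against IgG and 16 in replicate 2, with a median length of 124.5, 146 and 263 bp against 119, 120 and 181 bp in the whole lists. Their pileup, the number of overlapping tags, was worth 4.0 to 5.2 tags in replicate 1, 4.0 to 5.6 against IgG and 6.0 to 7.4 in replicate 2 before scaling to the smaller library, and the lowest value of each whole list was 4.0, 4.0 and 6.0. Fold enrichment over the control ran from 2.51 to 3.19 in replicate 1, 2.52 to 3.09 against IgG and 2.40 to 2.89 in replicate 2, with medians of 2.73, 2.80 and 2.55 against 2.63, 2.66 and 2.45 in the whole lists. A fold enrichment of 3 was reached by 1, 1 and 0 of them, against 8.96%, 10.66% and 1.56% of the whole lists. Each member peak thus rests on few tags, close to the lowest number at which a peak was called.

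The same genes carried peaks in both replicates, but mostly at different bases. Of the 24 peaks of replicate 1, 1 overlapped a replicate 2 peak (4.17%, against 2.85% of the whole list), and of the 16 of replicate 2, 1 overlapped a replicate 1 peak (6.25%, against 1.90%). That pair lay at Foxd1 and shared the 137 bases printed above, from 5215 to 5351 bp after the gene start and beginning 152 bp past the gene end. No peak of the IgG list overlapped a replicate 2 peak in the windows. Within 1 kb, 11 of 24 peaks of replicate 1 (45.8%) and 9 of 16 of replicate 2 (56.25%) had a peak of the other replicate, against 12.7% and 7.47% of the whole lists. All of these lay at Foxd1, Foxc1 and Foxf2, most of them at Foxd1. At Foxc2, Foxl1, Foxd2, Foxf1 and Foxq1 the nearest peak of the other replicate was 1616 bp or more away, so the pooled shares do not describe those genes. The control mattered too, since 16 of the 24 replicate 1 peaks called against input were overlapped by a peak called against IgG, and 16 of the 25 called against IgG by one called against input.

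At the gene starts, Foxc1 was the only member with a peak within 1 kb in both replicates. Its replicate 1 peak ran from -941 to -763 bp relative to the start, with the same ends against IgG, and its replicate 2 peak ran from -466 to 62 bp, across the start. The 2 peaks lay on neighbouring stretches and did not share a base. In replicate 1 against input, 2 of 8 members had a peak within 1 kb of the start, Foxq1 and Foxc1 (all genes 3.87%), and against IgG there were 2, Foxl1 and Foxc1 (4.52%). In replicate 2 there were 5, Foxc2, Foxl1, Foxf2, Foxc1 and Foxd1 (4.16%). In both replicates it was 1 of 8, against 1.04% of all genes.

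At Foxd1 (chr13:98354242-98359305, plus strand), 7 peaks were called in each list. Those of replicate 1 included the one at -1589 to -1529 bp printed above, with a fold enrichment of 3.19, and a group of 5 from 4473 bp onward around and past the gene end. Those of replicate 2 included 3 upstream, of which the nearest, from -1205 to -862 bp, had the highest fold enrichment of that list in the windows, 2.89. At Foxd2 (chr4:114906282-114908873, minus strand), the 2 peaks of replicate 1 lay 3919 to 4012 and 4638 to 4783 bp after the start, downstream of the gene. The single replicate 2 peak lay 2042 to 2258 bp after it, in the 3′ UTR.

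At Foxc2 (chr8:121116171-121118895, plus strand), 4 of the 5 replicate 1 peaks lay downstream of the gene, from 4460 to 6792 bp after the start, whereas the replicate 2 peak lay in the coding sequence, 840 to 1151 bp after it. Foxl1 (chr8:121127940-121130644, plus strand) had the same arrangement, with replicate 1 peaks only in the flanks and the replicate 2 peak in the coding sequence, 460 to 732 bp after the start. The Foxc2 and Foxl1 windows overlap, and 1 replicate 1 peak at chr8:121122886-121122963 is counted for both genes. At Foxf1 (chr8:121084386-121088144, plus strand), the replicate 2 peak lay from -3753 to -3501 bp, inside the divergent long noncoding RNA gene Fendrr, and the single IgG peak was 46 bp long, 7774 bp after the start.

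At Foxf2 (chr13:31625816-31631403, plus strand), the replicate 1 peaks lay from -4847 to -4391 and from -1922 to -1810 bp and the replicate 2 peak from -978 to -673 bp, all within the noncoding RNA gene 1700018A04Rik on the other strand. A second replicate 2 peak began 5631 bp after the start, downstream of the gene. At Foxc1 (chr13:31806633-31812476, plus strand), the 2 replicate 1 peaks inside the gene lay in the 3′ UTR, and the replicate 2 peaks covered the start, the coding sequence from 1186 to 1534 bp and the 3′ UTR from 4815 to 5003 bp. At Foxq1 (chr13:31556134-31560976, plus strand), the only peak, of replicate 1, lay 420 to 549 bp after the start in the 5′ UTR, and also inside A530084C06Rik on the other strand.

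**Figure D2:**
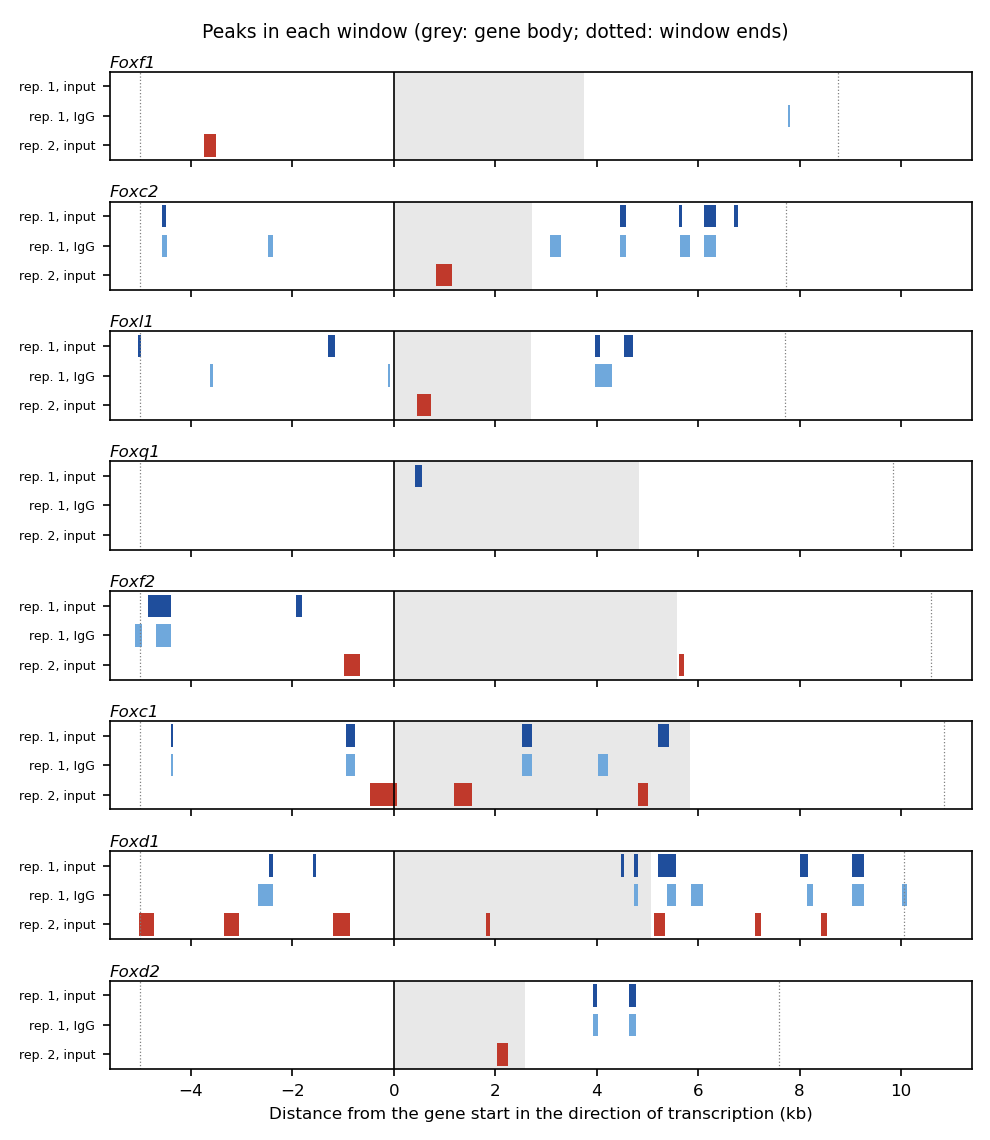
Position of each peak (coloured bars; 1 row per peak list) in the 8 windows, in kb from the gene start in the direction of transcription, with the gene body in grey and the window ends dotted. Replicate 1 peaks of Foxc2 and Foxl1 lay outside the gene bodies and their replicate 2 peaks inside, and only at Foxd1 did a replicate 1 and a replicate 2 peak against input share bases.

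Counted over the 8 windows, peaks of replicate 1 lay mostly beside the genes and those of replicate 2 more often on them. Of the 24 replicate 1 peaks, 5 touched a gene body, 8 lay upstream and 11 downstream. Against IgG the counts were 3, 9 and 13, and in replicate 2 they were 7, 5 and 4. Coding sequence was reached only in replicate 2, by 3 peaks at Foxc2, Foxl1 and Foxc1. The gene bodies made up 33.12 kb, or 29.5% of the windows, and were covered to 2.10% in replicate 1, 1.39% against IgG and 4.45% in replicate 2, while the flanks were covered to 3.68%, 4.26% and 3.16%. With 1 library on each side, this difference has no test.

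The gene bodies were rich in CG dinucleotides, from 3.83 per 100 bases at Foxf1 to 8.88 at Foxc2, and the flanks ranged from 0.820 at Foxq1 to 4.27 at Foxf1. Member peaks pooled by list held 1.92 CG per 100 bases in replicate 1, 1.96 against IgG and 6.42 in replicate 2, compared with 1.35, 1.44 and 1.13 over the whole lists. Peaks with at least 6 CG per 100 bases numbered 1 of 24, 2 of 25 and 7 of 16 (43.75%), against 2.46%, 2.97% and 1.77% of the whole lists. The 7 of replicate 2 were 3 at Foxc1 and 1 each at Foxl1, Foxd1, Foxc2 and Foxf1, with 9.07 to 13.76 per 100 bases. Peaks without any CG made up 25.0%, 16.0% and 0% of member peaks and 39.3%, 37.8% and 31.1% of the lists.

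The windows were then cut into tiles of 200 bp, a measure chosen after the peak positions had been seen. In the 104 tiles with at least 6 CG per 100 bases, 0.966% of bases lay in peaks of replicate 1, 0% in peaks against IgG and 9.18% in peaks of replicate 2. In the 262 tiles with under 2 CG per 100 bases the shares were 3.98%, 4.29% and 2.13%. Over all protein-coding windows of at most 20 kb, the CG-dense tiles were covered to 1.01%, 1.54% and 1.94% and the CG-poor tiles to 0.262%, 0.301% and 0.296%. In the 191 Fox tiles with 2 to under 6 CG per 100 bases the shares were 3.44%, 4.01% and 2.46%. Such tiles of all protein-coding windows of at most 20 kb were covered to 0.69%, 0.84% and 0.68%. In the CG-poor and middle tiles the Fox windows thus lay above all those windows, which include them, in every list. In the CG-dense tiles they did so only in replicate 2. Tag length, fragment length and depth differed between the replicates, and their part in this was not tested.

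**Figure D3:**
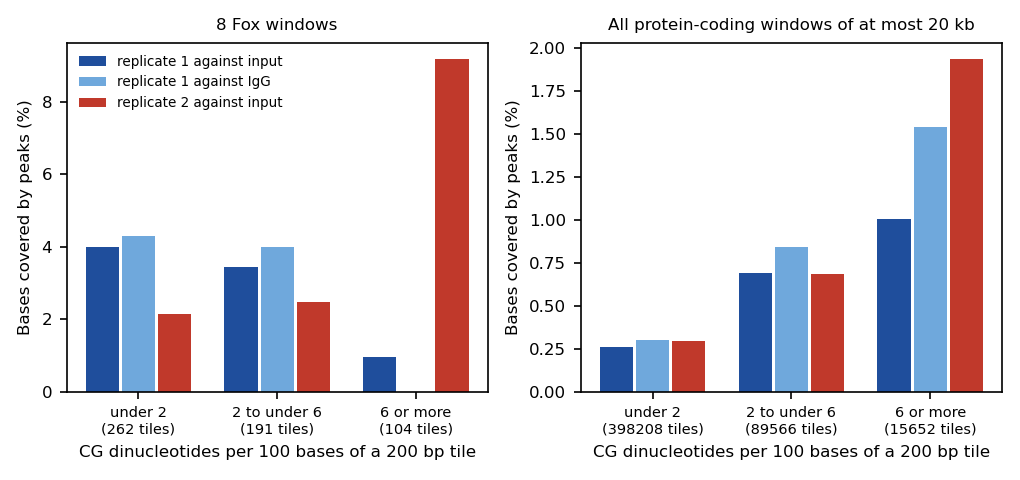
Percentage of bases covered by peaks (y axis, a different scale in each panel) in 200 bp tiles grouped by CG dinucleotides per 100 bases (x axis), for the 8 Fox windows on the left and all protein-coding windows of at most 20 kb on the right, with 1 bar per peak list. In the densest class of the Fox windows replicate 2 reached 9.18% and replicate 1 stayed at 0.966%.

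Next, the 2 Fox clusters were compared, each taken from its first to its last gene with 5 kb on each side. The Foxf1-Foxc2-Foxl1 cluster on chromosome 8 spanned 56.3 kb and held 8, 10 and 4 peaks in the 3 lists. The Foxq1-Foxf2-Foxc1 cluster on chromosome 13 spanned 266 kb and held 14, 17 and 14. Per length, 1.75%, 2.60% and 1.64% of the first were covered (replicates against input 1.70% ± 0.0742, n = 2) and 0.895%, 1.01% and 1.33% of the second (1.11% ± 0.309). The difference was 0.854 percentage points for replicate 1 and 0.312 for replicate 2 (mean 0.583 ± 0.383), higher in the Foxf1 cluster in 2 of 2 replicates (exact two-sided sign-flip test over 2 libraries, p = 0.5, the smallest p it can give).

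The direction of this difference depended on the bases compared. Over the 3 gene windows of each cluster the mean covered share was 2.64% in the Foxf1 cluster and 2.87% in the Foxq1 cluster in replicate 1, and 2.15% and 3.10% in replicate 2, a difference of -0.591 ± 0.507 (exact sign-flip test, p = 0.5). Against IgG it was 3.83% and 2.00%, the other way round. Between the windows, the Foxq1 cluster had 220 kb, covered to 0.471%, 0.798% and 0.947%, and the Foxf1 cluster had 18.0 kb, covered to 0%, 0% and 0.483%. The difference was larger than its SD over the 2 libraries for either measure, but the measures had opposite signs, and 2 libraries cannot give a p below 0.5. That SD leaves out the choice of control. Over the gene windows, the same replicate 1 library gave a difference of -0.232 against input and 1.82 against IgG.

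Along the Foxf1 cluster the peaks of replicate 1 were gathered at its far end, at Foxc2 and Foxl1, whereas replicate 2 was also covered ahead of Foxf1. In 10 kb bins counted from the start of Foxf1, the bin holding Foxc2 was covered to 4.85%, 8.30% and 3.12% and the bin holding Foxl1 to 4.29%, 3.98% and 2.73%. The bin ahead of Foxf1 was covered to 0%, 0% and 3.62%. When peaks no more than 5 kb apart were joined, 5 peaks between Foxc2 and Foxl1 formed a run of 6.15 kb in replicate 1, and 7 peaks formed one of 13.01 kb against IgG. In replicate 2 the peaks at Foxc2 and Foxl1 stood alone, and the run of 6.93 kb, made of 3 peaks, lay ahead of Foxf1 and into Fendrr. Fendrr itself had 0, 0 and 3 peaks in its window.

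Along the Foxq1 cluster there were 2 dense places, just ahead of Foxf2 and at Foxc1, with Foxq1 in neither. The bin 60 kb after the start of Foxq1, ahead of Foxf2, was covered to 8.04%, 8.58% and 6.29%, and the bin holding Foxc1 to 4.23%, 3.96% and 10.67%. The first lies in 1700018A04Rik, whose window held 7, 9 and 5 peaks. Its peaks extended the Foxf2 window upstream into runs of 11.2 kb with 6 peaks in replicate 1 and 8.59 kb with 6 against IgG, both from the same ChIP library. In replicate 2 no run formed at Foxf2 under the 5 kb limit, where 2 single peaks of 0.306 and 0.092 kb were joined to no other. The bin ahead of Foxf2 held 2 replicate 2 peaks, among them the one of 0.306 kb. They lay slightly more than 5 kb apart, so the lack of a run depends on that limit. At Foxc1 the run was 9.83 kb with 4 peaks, 8.63 kb with 4, and 5.47 kb with 3 in replicate 2.

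**Figure D4:**
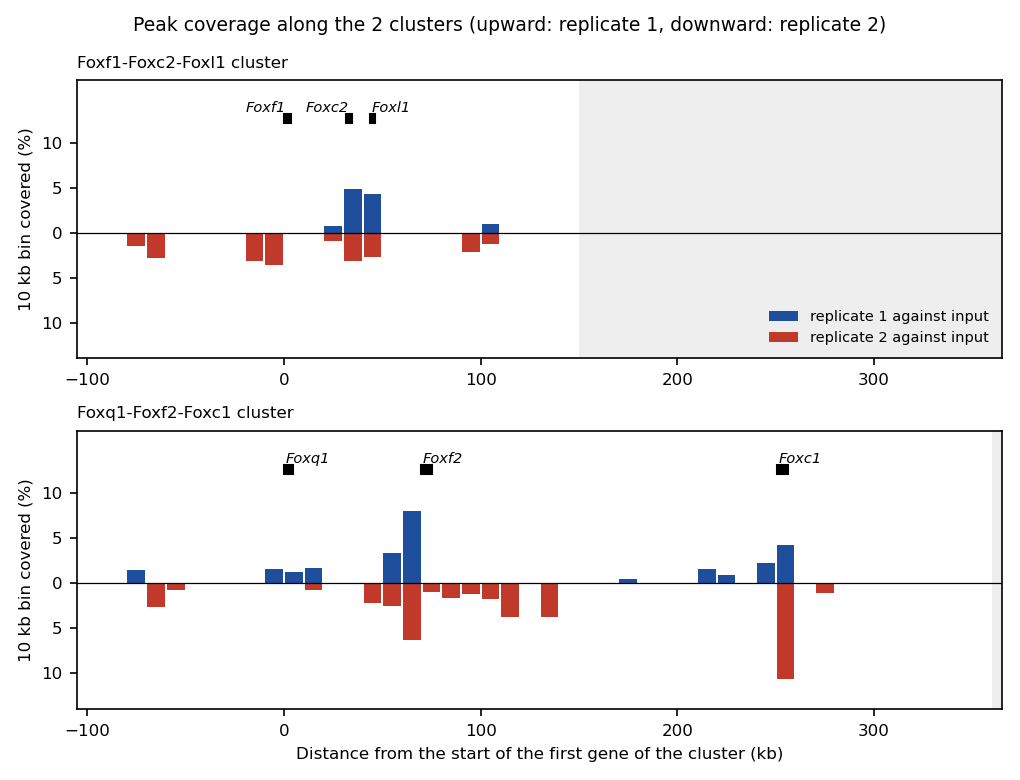
Percentage of each 10 kb bin covered by peaks (y axis; replicate 1 against input upward, replicate 2 against input downward) along the 2 clusters and 100 kb around them, in kb from the start of the first gene, with the genes as black boxes and the part not measured shaded. In the upper cluster both replicates covered the bins of Foxc2 and Foxl1 and replicate 2 also the bin ahead of Foxf1 (3.62%), and in the lower cluster both were densest ahead of Foxf2 and at Foxc1.

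The genes of the 2 clusters were also set side by side in pairs, the Foxf paralogues, the Foxc paralogues and the remaining gene of each cluster. Foxl1 was covered more than Foxq1 by 2.69 percentage points in replicate 1 and 2.15 in replicate 2 (mean 2.42 ± 0.383), and Foxf1 less than Foxf2, by -3.66 and -0.714 (mean -2.19 ± 2.08), each with an exact sign-flip p of 0.5. Foxc2 minus Foxc1 was 0.272 in replicate 1 and -4.28 in replicate 2 (exact sign-flip p = 1), so the order of the Foxc genes differed between replicates.

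Outside the clusters, the 100 kb on either side held few peaks. Ahead of the Foxf1 cluster there were 0, 2 and 5 and after it 1, 2 and 2, and around the Foxq1 cluster there were 2, 1 and 2 ahead and 0, 1 and 1 after. Foxd1 differed from the clusters in that its peaks went on past the window on 1 side, with 7, 8 and 7 peaks in the 100 kb after it and 1, 0 and 1 in the 100 kb ahead. In replicate 2, 12 peaks no more than 5 kb apart joined into a run of 25.9 kb over Foxd1, the longest run at any member. In replicate 1 the run was 8.47 kb with 7 peaks and against IgG 8.23 kb with 7. Around Foxd2 there were 2, 3 and 7 peaks on the side of the lower coordinates and 4, 6 and 4 on the other.

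Among the 44 Fox genes of the annotation, the 8 described here fell in the upper and middle part by mean covered share. Foxd1 was 8th, Foxc1 11th, Foxc2 13th, Foxf2 14th, Foxl1 15th, Foxd2 18th, Foxf1 22nd and Foxq1 24th. Among the genes above Foxd1 were Foxb1 (15.52% in replicate 1, 15.33% against IgG and 17.97% in replicate 2) and Foxb2 (15.37%, 10.56% and 5.30%), which are known from neural tissue. Foxb1 lay above Foxd1 in every list and Foxb2 only in the lists of replicate 1. Of 24 other tissue-restricted Fox genes, 17 had a peak in both replicates and the median of their mean covered share was 1.91%, compared with 2.98% over the 8 genes described. Windows over 20 kb were held by 7 of these 24 and by 0 of the 8. The higher median of the 8 therefore does not show that they were covered more at equal window length. Of 12 broadly expressed Fox genes, Foxp1 and Foxn3 had a peak in both replicates, and the median was 0.0492%. Of those 12, 11 had windows over 20 kb, so their shares are spread over longer genes.

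Genes with the most similar covered shares over the 3 lists were found by the Euclidean distance to the median of the 3 gene windows of each cluster. In every list this median was the value of Foxl1 in the Foxf1 cluster and of Foxf2 in the Foxq1 cluster. The genes named are thus those nearest to Foxl1 and Foxf2 and were not measured against the other genes of the clusters. For the Foxf1 cluster (3.57%, 3.51% and 2.15%) these were Skor2, Tbx15 and Tbr1, at distances of 0.338, 0.452 and 0.455 percentage points. For the Foxq1 cluster (3.66%, 2.09% and 2.55%) they were 4930407I10Rik, Elovl3 and Pmaip1, at 0.467, 0.640 and 0.951. The likeness is over 3 lists of which 2 share a ChIP library.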

How the data were processed

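H3K27me3 ChIP-seq was available for 2 libraries, with 2 inputs and 1 IgG control. Groups were taken from the sample descriptions. Per the study's methods, the authors aligned reads to GRCm38 with BWA, kept uniquely mapped reads and sorted them with SAMtools. Per the submitters' processing notes Partek was also used. The authors called broad peaks per library, without pooling, with MACS 2.1.1.20160309 at a p-value of 0.005. Per the file headers, the larger library was scaled to the smaller. The deposited pileup is a coverage signal, the deposited fold enrichment is a ratio to the control that MACS shrinks towards 1 at low depth, and the deposited -log10 p is that of the peak. Further formats of each list held the same positions and were not used.

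Control tags kept were 23688420 (input 1), 24440452 (IgG) and 51681224 (input 2). The lists give peaks called, so bases outside peaks have no value. Peaks were intersected with GENCODE M21 windows (gene body ± 5 kb) at a minimum of 1 base. Covered share is the percentage of window bases in peaks. Alternatives used other flanks (0, 2 and 10 kb), a promoter of 5 kb, a fold enrichment or -log10 p of at least 3, replicate 2 reduced to the peak number of replicate 1, IgG as control and 1 replicate at a time. Clusters were compared by an exact sign-flip test. Genes were named by membership, with the highest other Fox genes, neighbouring genes and the 3 genes nearest the median of each cluster. The members and gene lists were chosen with earlier results of these data known. Scripts used Python 3.11.15, pandas 2.3.3 and numpy 2.4.6 and were tested on simulated data. Some genes that these rules name are not reported here. The RefSeq promoter table held 4 of the 8 members.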

Additional observations from a re-analysis of the deposited data

How the results depend on the processing

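Stricter peaks left few calls at any gene. With a fold enrichment of at least 3, which kept 2040 peaks of replicate 1 and 522 of replicate 2, 0 of the 8 genes had a peak in both replicates (all protein-coding genes 0.251%) and 0 had one within 1 kb of the start in both (0.00912%). The covered share was then 0% in the Foxf1-Foxc2-Foxl1 cluster and 0.00995% in the Foxq1-Foxf2-Foxc1 cluster. The difference of -0.00995 percentage points turned the direction but rests on almost no bases. The windows of Foxq1, Foxf2 and Foxc1 were each covered to 0% at this threshold. With a -log10 p of at least 3 (744 and 3678 peaks), the values were 1 gene in the window (0.707%) and 0 at the start (0.0273%), and 0.277% and 0.0488% for the clusters. Fewer peaks remained under each threshold by construction, so these counts say little about the 8 genes. The mean over the 3 gene windows of each cluster also turned the difference, to -0.591, since it leaves out the bases between the windows. The Foxf1 cluster's share moved from 1.70% to 1.47% with replicate 2 reduced in peaks, 2.12% against IgG, 1.48% with no flank and 1.52% with a flank of 10 kb. Genes with a start peak in both replicates numbered 2 in place of 1 against IgG (all genes 1.29%) and 6 within 5 kb of the start (4.31%). With 1 replicate alone, the difference ranged from 0.312 to 0.854, the clusters' shares from 1.64% to 1.75% and 0.895% to 1.33%, genes with a peak from 7 to 7 and genes with a start peak from 2 to 5. Of the values that answer a comparison, 24 stayed within the spread or within 1.5 times the count, 16 moved and 2 turned direction. No paired analysis was possible because H3K27me3 was set against its controls only by the deposited calls, with 1 list per pair of libraries, and no model was fitted between these groups. The comparisons of clusters and of gene pairs are differences within each library. Weak peaks of 4 to 7 tags limit what can be said of single positions.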
